A study of Mus musculus with 2 samples.

Results

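The genes of the mouse major histocompatibility complex (MHC) and of the antigen processing route that feeds it were compared between liver tumors of *Fabp4-/-* mice and of WT mice. The members were every protein-coding gene whose name begins with H2-, which gave 34 genes, and 10 named partners: *B2m*, *Tap1*, *Tap2*, *Tapbp*, *Psmb8*, *Psmb9*, *Psmb10*, *Nlrc5*, *Ciita* and *Cd74*. These are 44 of the 48526 genes of the table. By name, 32 belong to the class I pathway and 11 to the class II pathway. The remaining member, *H2-Ke6*, encodes a steroid dehydrogenase and belongs to neither.

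The study asked how the adipocyte protein FABP4 bears on liver cancer in fatty liver disease. Of tumor nodules from male *Fabp4-/-* mice, which carry a constitutive knockout of *Fabp4*, 1 library was made, and 1 from male WT littermates, all on the C57BL/6N background. Both groups had received the carcinogen N-nitrosodiethylamine (DEN) into the peritoneum at 25 mg/kg when 14 days old, and a high-fat diet (HFD) for 29 weeks beginning at 6 weeks of age. PolyA RNA was read from both ends at 151 bp, and how many mice or tumors went into a library is not stated.

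MHC class I molecules sit on nearly every nucleated cell. They are built of a heavy chain and the light chain β2-microglobulin, and they hold peptides that the proteasome cuts in the cytosol and the TAP transporter carries into the endoplasmic reticulum. MHC class II molecules are made mainly by dendritic cells, B cells and macrophages, are escorted by the invariant chain, and hold peptides from endocytosed protein. Interferon-γ from T cells and NK cells is a well-known inducer of both pathways, through IRF1 and the transactivators NLRC5 and CIITA.

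Because each genotype had a single library, no p-value was computed. Every comparison describes these 2 libraries, and the genotype cannot be told apart from differences among the sampled tumors. The estimated depth was 59600850 read pairs for the *Fabp4-/-* library and 56353665 for the WT library. *Fabp4* was at 0.03 TPM in the *Fabp4-/-* library, against 44.1 TPM in the WT library. The log2 ratios set *Fabp4-/-* over WT after adding 0.5 to both TPM values, which understates the difference for low genes. They were computed for the 13557 genes, called measured, with 1 TPM or more in the higher library. TPM is transcripts per 1000000, a level corrected for transcript length. The authors' second scale, the normalised count, is not corrected for length. The median gene stood at −0.46 by TPM and at 0.03 by normalised counts, so that lower TPM values were common across the table. By TPM, 14.2% of measured genes were at least 2-fold lower in the *Fabp4-/-* library and 2.18% at least 2-fold higher. By normalised counts the shares were 4.20% lower and 3.74% higher. Intervals given for ratios of normalised counts are 95% exact Clopper-Pearson intervals from the read pairs. They cover counting error only, and amplified copies of 1 molecule are not told apart in them.

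Of the 44 members, 32 were measured, and 23 of these had a TPM in the *Fabp4-/-* library that was lower by 2-fold or more. None was 2-fold higher, and 9 lay between. On the normalised count scale 7 were lower by 2-fold or more and again none was 2-fold higher. The class II medians lay further below the all-gene median than the class I medians, a difference that was not tested. All 10 measured class II members were at least 2-fold lower by TPM, with a median log2 ratio of −1.58, or −1.12 relative to the median of all genes. Of 21 measured class I members, 13 were at least 2-fold lower, with a median of −1.08, or −0.62 relative to it. By normalised counts 4 of 10 class II and 3 of 21 class I members were at least 2-fold lower, with medians of −0.96 for class II and −0.52 for class I. The ranges overlapped, from −2.08 to −1.29 for class II and from −2.48 to 0.26 for class I. In bulk tissue, fewer cells of a type and less RNA per cell cannot be told apart.

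**Figure D1:**
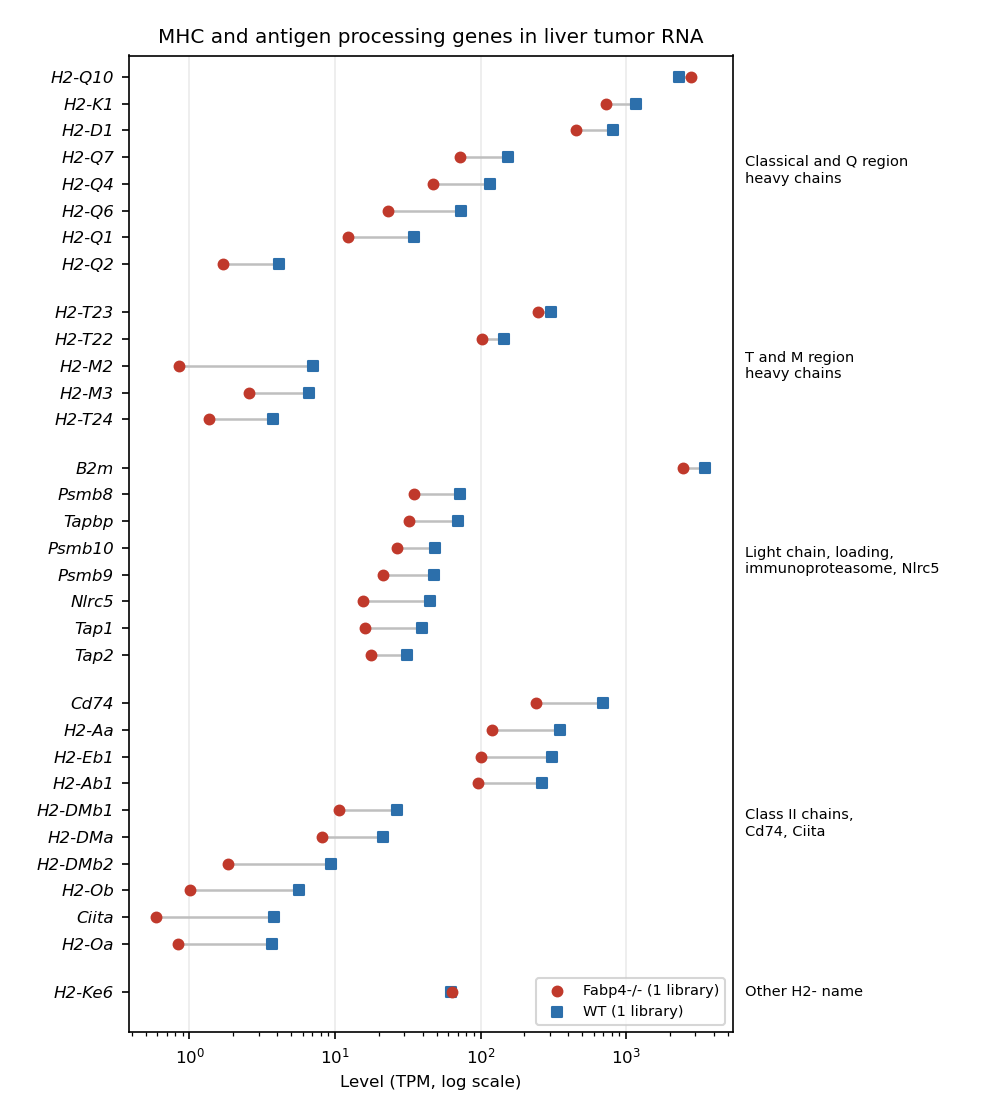
Level of each measured member in TPM (log axis), with the *Fabp4-/-* library as circles and the WT library as squares, 1 library each, and a line joining the 2 values of a gene. The 10 class II members all lie further left in the *Fabp4-/-* library, whereas *H2-Q10*, at 2788 TPM in *Fabp4-/-* and 2329 TPM in WT, lies further right and *H2-Ke6* nearly coincides.

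The 12 members that were not measured were almost all nonclassical class I genes. *H2-T3*, the thymus leukemia antigen of intestinal epithelium, *H2-M1*, *H2-M9*, *H2-M11* and *H2-M10.1* to *H2-M10.6* were listed at 0 in both libraries. Several of the H2-M10 genes are known from the sensory neurons of the vomeronasal organ. *H2-M5* was at 0.13 TPM in the *Fabp4-/-* library and 0.24 TPM in the WT library, and the class II chain gene *H2-Eb2* at 0.22 TPM in *Fabp4-/-* and 0.74 TPM in WT.

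The promoters of the classical and Q region heavy chain genes differ in the conserved elements of this family. The 200 bases before the start are printed for 4 of these genes. The sequences are RefSeq's on GRCm38.p6, 5′ to 3′ on the strand of the gene. Capitals mark GGGATTCCC (a κB element), AANNGAAA (an interferon regulatory factor core) and ATTGG (the Y box, an inverted CCAAT), each searched on both strands, so that CCAAT and TTTCACTT are matches on the opposite strand.
*H2-K1* (chr17:34000334-34000533, minus strand): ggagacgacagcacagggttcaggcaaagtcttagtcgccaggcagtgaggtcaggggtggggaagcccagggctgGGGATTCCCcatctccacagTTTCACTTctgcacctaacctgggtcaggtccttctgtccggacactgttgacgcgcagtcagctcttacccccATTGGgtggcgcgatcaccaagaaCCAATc
*H2-D1* (chr17:35262894-35263093, plus strand): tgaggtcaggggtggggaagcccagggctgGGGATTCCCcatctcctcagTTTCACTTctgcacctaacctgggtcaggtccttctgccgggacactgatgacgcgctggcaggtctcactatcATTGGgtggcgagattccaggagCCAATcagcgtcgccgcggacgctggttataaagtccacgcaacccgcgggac
*H2-Q7* (chr17:35438955-35439154, plus strand): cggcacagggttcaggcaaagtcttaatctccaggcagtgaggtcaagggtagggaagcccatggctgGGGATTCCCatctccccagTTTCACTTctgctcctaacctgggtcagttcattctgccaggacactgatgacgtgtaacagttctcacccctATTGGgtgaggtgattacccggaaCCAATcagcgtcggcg
*H2-Q10* (chr17:35469889-35470088, plus strand): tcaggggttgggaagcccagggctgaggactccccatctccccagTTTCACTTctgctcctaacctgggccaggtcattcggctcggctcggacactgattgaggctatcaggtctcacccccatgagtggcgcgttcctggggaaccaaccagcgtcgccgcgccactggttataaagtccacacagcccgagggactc
The κB letters stood in the promoters of 4 of the 17 measured class I members with a promoter sequence, *H2-K1*, *H2-D1*, *H2-Q6* and *H2-Q7*, against 0.353% of all 32851 promoters. Those windows ran from 250 bases before to 50 after the start. The same letters and ATTGG were not found in the *H2-Q10* window, which holds the interferon regulatory factor core. That core was in 12 of the 17 and ATTGG in 14 of the 17, against 23.9% and 37.4% of all promoters. The κB letters were also absent from the windows of *H2-Q2* and *H2-Q4*, which were lower by 2-fold or more in TPM. The motifs were chosen with the sequences in view, and a match is a description of letters only. A link between these letters and the levels was not tested.

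*H2-K1* and *H2-D1*, the classical heavy chains that present peptides to CD8 T cells, were lower by TPM. *H2-K1* (ENSMUSG00000061232.15, chr17:33996017-34000333 on mm10) was at 732 TPM in the *Fabp4-/-* library and 1176 TPM in the WT library. Its log2 ratio was −0.68, or −0.22 relative to the all-gene median, and its normalised count was 0.923 times that of WT (0.913 to 0.933). *H2-D1* was at 454 TPM in *Fabp4-/-* against 817 TPM in WT, a log2 ratio of −0.85, with a normalised count 0.831 times that of WT (0.821 to 0.841). Neither reached 2-fold on either scale.

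*H2-Q10* went the other way. It encodes a secreted class I molecule that hepatocytes release into serum. The gene was at 2788 TPM in the *Fabp4-/-* library and 2329 TPM in the WT library, a log2 ratio of 0.26, and it was the only measured class I member above 0 by TPM. Its normalised count was 1.73 times that of WT (1.72 to 1.74). Within the *Fabp4-/-* library *H2-Q10* stood at 3.81 times the TPM of *H2-K1*, against 1.98 times in the WT library, a ratio that no scaling of a library can move. *H2-Q10* made up 62.2% of the summed heavy chain TPM in the *Fabp4-/-* library and 45.0% in the WT library, while *H2-K1* made up 16.3% in *Fabp4-/-* and 22.7% in WT, and *H2-D1* 10.1% in *Fabp4-/-* and 15.8% in WT. Set over albumin (*Alb*), the main secretory product of hepatocytes, *H2-Q10* was 0.0427 in the *Fabp4-/-* library and 0.0474 in the WT library, whereas *H2-K1* was 0.0112 in the *Fabp4-/-* library and 0.0239 in the WT library. Such ratios depend on the hepatocyte gene chosen. *Apob* was at 1334 TPM in *Fabp4-/-* and 1616 TPM in WT, and *Ttr* at 7455 TPM in *Fabp4-/-* and 3469 TPM in WT.

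The other 5 Q region genes were all at least 2-fold lower by TPM. *H2-Q7* and *H2-Q6*, which encode the membrane-anchored antigen Qa-2, were at 72.6 TPM and 23.02 TPM in the *Fabp4-/-* library, against 154 TPM and 72.9 TPM in WT. *H2-Q4* was at 46.9 TPM in *Fabp4-/-* against 117 TPM in WT, *H2-Q1* at 12.2 TPM in *Fabp4-/-* against 34.9 TPM in WT, and *H2-Q2* at 1.69 TPM in *Fabp4-/-* against 4.10 TPM in WT. The log2 ratios of the 5 ran from −1.64 to −1.07. Only *H2-Q6* was at least 2-fold lower by normalised counts too, at 0.467 times WT (0.446 to 0.490), and the remaining 4 stood between 0.515 and 0.607 times WT. Heavy chains resemble one another, and RSEM divides shared reads by estimate. Of the 151-base windows in the transcripts of *H2-Q6*, 5.94% also occur in *H2-Q7*, and 3.37% of those of *H2-Q10* occur in *H2-Q7* or *H2-Q5*. The sum of *H2-Q6* and *H2-Q7* was 95.6 TPM in the *Fabp4-/-* library and 227 TPM in the WT library, with a normalised count 0.546 times that of WT (0.532 to 0.560).

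*H2-T23* and *H2-T22*, of the T region, lay close to the median gene. *H2-T23*, which encodes Qa-1, the ligand of the inhibitory NK receptor CD94/NKG2A, was at 247 TPM in the *Fabp4-/-* library and 304 TPM in the WT library. *H2-T22*, a ligand of some γδ T cell receptors, was at 102 TPM in *Fabp4-/-* and 146 TPM in WT. By normalised counts *H2-T23* was 1.18 times WT (1.155 to 1.204) and *H2-T22* 1.004 times (0.976 to 1.03), so neither was below WT on both scales. Relative to the all-gene median the log2 ratio of *H2-T23* was 0.17 by TPM and 0.20 by normalised counts. That of *H2-T22* was −0.06 by TPM and −0.03 by normalised counts. The rarer *H2-T24* was at 1.37 TPM in *Fabp4-/-* against 3.76 TPM in WT. *H2-M3*, which presents formylated peptides of bacteria and mitochondria, was at 2.55 TPM in *Fabp4-/-* against 6.63 TPM in WT. Their normalised counts were 0.568 times WT for *H2-T24* (0.463 to 0.694) and 0.570 times for *H2-M3* (0.473 to 0.684). The lowest ratio of any member was that of *H2-M2*, another nonclassical heavy chain gene, at 0.85 TPM in the *Fabp4-/-* library and 7.04 TPM in the WT library. That is a log2 ratio of −2.48, from 57 read pairs in *Fabp4-/-* and 413 in WT, and a normalised count 0.178 times that of WT (0.132 to 0.235). It was the only class I member past 4-fold.

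*B2m*, the light chain shared by all class I heavy chains, was among the most abundant members and did not keep 1 direction. It was at 2465 TPM in the *Fabp4-/-* library and 3498 TPM in the WT library, a log2 ratio of −0.51, or −0.05 relative to the all-gene median, whereas its normalised count was 1.04 times that of WT (1.03 to 1.05). *H2-K1* over *B2m* was 0.297 in the *Fabp4-/-* library and 0.336 in the WT library.

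The log2 TPM ratios of the peptide transport and loading genes lay below that of *B2m*. *Tap1*, a subunit of the peptide transporter, was at 16.1 TPM in the *Fabp4-/-* library and 39.5 TPM in the WT library, a log2 ratio of −1.26. *Tap2*, the other subunit, was at 17.7 TPM in *Fabp4-/-* and 31.1 TPM in WT, a log2 ratio of −0.80. The bridging protein tapasin (*Tapbp*), which holds the transporter to the empty heavy chain, was at 32.2 TPM in *Fabp4-/-* and 70.2 TPM in WT, a log2 ratio of −1.11. By normalised counts all of these were below WT and short of 2-fold, at 0.560 times for *Tap1* (0.531 to 0.589), 0.844 times for *Tap2* (0.802 to 0.889) and 0.717 times for *Tapbp* (0.691 to 0.744).

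The immunoproteasome showed a contrast with the constitutive proteasome that does not depend on scaling. Its catalytic subunits replace constitutive ones, *Psmb8* in place of *Psmb5*, *Psmb9* in place of *Psmb6* and *Psmb10* in place of *Psmb7*, and change which peptides are cut. *Psmb8* was at 35.2 TPM in the *Fabp4-/-* library and 72.4 TPM in the WT library, *Psmb9* at 21.3 TPM in *Fabp4-/-* and 47.8 TPM in WT, and *Psmb10* at 26.5 TPM in *Fabp4-/-* and 48.6 TPM in WT. The replaced subunits were level by TPM: *Psmb5* was at 142 TPM in the *Fabp4-/-* library and 136 TPM in the WT library, *Psmb6* at 215 TPM in either library, and *Psmb7* at 98.02 TPM in *Fabp4-/-* and 93.7 TPM in WT. *Psmb8* over *Psmb5* was 0.248 in the *Fabp4-/-* library and 0.532 in the WT library. *Psmb9* over *Psmb6* was 0.0990 in *Fabp4-/-* and 0.223 in WT, and *Psmb10* over *Psmb7* was 0.270 in *Fabp4-/-* and 0.519 in WT. All 3 ratios were thus lower in the *Fabp4-/-* library. By normalised counts *Psmb8* was 0.720 times WT (0.684 to 0.759), *Psmb9* 0.644 times (0.598 to 0.693) and *Psmb10* 0.808 times (0.758 to 0.862), while the replaced subunits were 1.54 times WT (*Psmb5*), 1.49 times (*Psmb6*) and 1.54 times (*Psmb7*). Of 8 measured constitutive proteasome genes, 0 were at least 2-fold lower or higher, with a median log2 ratio of 0.02 in TPM, which is 0.48 above the all-gene median. In normalised counts their median was 0.57.

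**Figure D2:**
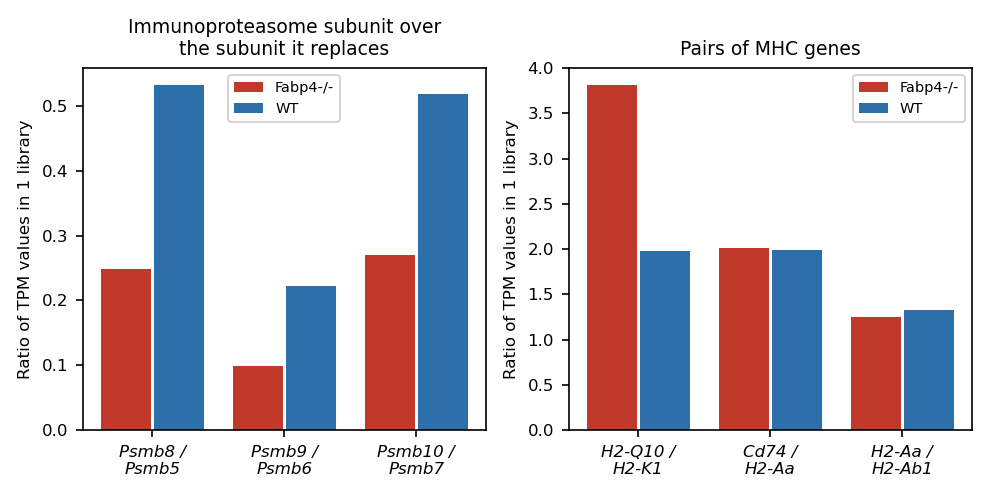
Ratios of TPM values between 2 genes of the same library, with the *Fabp4-/-* library left of the WT library (bars from 0, 1 library each, no error bars). The left panel sets each immunoproteasome subunit over the subunit it replaces, with *Psmb8* over *Psmb5* at 0.248 in *Fabp4-/-* and 0.532 in WT. The right panel shows *H2-Q10* over *H2-K1*, at 3.81 in *Fabp4-/-* and 1.98 in WT. Beside it stand *Cd74* over *H2-Aa* and *H2-Aa* over *H2-Ab1*, which differ little. Other class II pairs are not drawn.

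*Nlrc5*, the transactivator of class I genes, was at 15.5 TPM in the *Fabp4-/-* library and 44.7 TPM in the WT library, a log2 ratio of −1.50. Its normalised count was 0.355 times that of WT (0.335 to 0.376), so both scales gave nearly the same ratio here, whereas for the median gene they differed. Relative to the all-gene median its log2 ratio was −1.04 by TPM and −1.50 by normalised counts.

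The promoters of 2 class II genes are shown beside that of *B2m* because the classical class II promoter carries an X box as well as a Y box. Capitals mark AGCAAC (the centre of the X box), ATTGG and AANNGAAA, both strands searched. The X box letters stood in 3 of the 7 measured class II members with a promoter sequence, *H2-Eb1*, *H2-Oa* and *H2-Ob*, and ATTGG in 7 of 7, against 14.8% and 37.4% of all promoters.
*B2m* (chr2:122147487-122147686, plus strand): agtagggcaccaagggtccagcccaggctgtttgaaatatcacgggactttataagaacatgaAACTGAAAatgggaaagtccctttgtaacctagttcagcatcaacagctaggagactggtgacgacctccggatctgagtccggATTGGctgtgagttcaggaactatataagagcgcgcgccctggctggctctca
*H2-Eb1* (chr17:34305667-34305866, plus strand): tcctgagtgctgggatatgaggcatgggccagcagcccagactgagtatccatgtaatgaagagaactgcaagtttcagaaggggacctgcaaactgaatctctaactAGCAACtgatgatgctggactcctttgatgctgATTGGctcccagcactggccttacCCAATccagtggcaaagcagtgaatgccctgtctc
*H2-Ob* (chr17:34238705-34238904, plus strand): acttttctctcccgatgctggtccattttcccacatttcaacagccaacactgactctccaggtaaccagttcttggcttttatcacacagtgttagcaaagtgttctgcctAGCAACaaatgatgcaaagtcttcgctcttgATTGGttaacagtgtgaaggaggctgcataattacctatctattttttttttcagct

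The classical class II chains and the invariant chain were lower in the *Fabp4-/-* library by close to the same factor. *H2-Aa*, the α chain of I-A, was at 120.1 TPM in the *Fabp4-/-* library and 350 TPM in the WT library, a log2 ratio of −1.54. *H2-Ab1*, its β chain, was at 96.4 TPM in *Fabp4-/-* and 264 TPM in WT, a log2 ratio of −1.45. *H2-Eb1*, the β chain of I-E, was at 101 TPM in *Fabp4-/-* and 312 TPM in WT, a log2 ratio of −1.63. The C57BL/6 strain lacks a working α chain of I-E, and its pseudogene *H2-Ea-ps* was listed at 0 in both libraries. *Cd74*, the invariant chain that blocks the groove until peptide is loaded, was at 241 TPM in *Fabp4-/-* and 696 TPM in WT, a log2 ratio of −1.53. By normalised counts these 4 genes stood between 0.478 and 0.542 times WT, with intervals that reach at most 0.560. *H2-Aa*, *H2-Ab1* and *H2-Eb1* together came from 16394 read pairs in the *Fabp4-/-* library and 41522 in the WT library. Their proportions were close between libraries: *Cd74* over *H2-Aa* was 2.01 in *Fabp4-/-* and 1.99 in WT, and *H2-Aa* over *H2-Ab1* was 1.25 in *Fabp4-/-* and 1.32 in WT. The 3 chains made up 93.3% of the summed class II chain TPM in the *Fabp4-/-* library and 93.2% in the WT library.

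The chaperone genes that load class II peptides and the class II transactivator were also lower, at lower levels. *H2-DMa* and *H2-DMb1*, which form the H2-M heterodimer that removes the invariant chain remnant, were at 8.10 TPM and 10.6 TPM in the *Fabp4-/-* library, against 21.5 TPM and 26.8 TPM in WT, and the normalised count of *H2-DMa* was 0.560 times that of WT (0.507 to 0.618). *H2-DMb2*, the second β chain gene, was at 1.83 TPM in *Fabp4-/-* against 9.34 TPM in WT, a log2 ratio of −2.08. Some reads of these β chain genes were divided by estimate, and together they came from 783 whole read pairs in *Fabp4-/-* and 1930 in WT, 0.522 times WT by normalised counts (0.480 to 0.568). *H2-Oa* and *H2-Ob*, the chains of the modulator H2-O that is best known from B cells, were at 0.84 TPM and 1.01 TPM in the *Fabp4-/-* library, against 3.69 TPM and 5.67 TPM in WT. Each had a normalised count 0.344 times that of WT, with intervals of 0.239 to 0.487 for *H2-Oa* and 0.276 to 0.426 for *H2-Ob*. In TPM, *H2-Ob* over *H2-DMa* was 0.125 in the *Fabp4-/-* library and 0.264 in the WT library, so not all class II proportions were close. *Ciita* was at 0.59 TPM in the *Fabp4-/-* library and 3.81 TPM in the WT library, from 160 read pairs in *Fabp4-/-* and 897 in WT. Its normalised count was 0.230 times that of WT (0.193 to 0.272), the smallest of the class II members. *H2-DMb2* and *H2-Ob* were the class II members past 4-fold on the log2 TPM scale. Without the pseudocount, the TPM of *Ciita* was 6.46-fold and that of *H2-Oa* 4.39-fold lower.

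**Figure D3:**
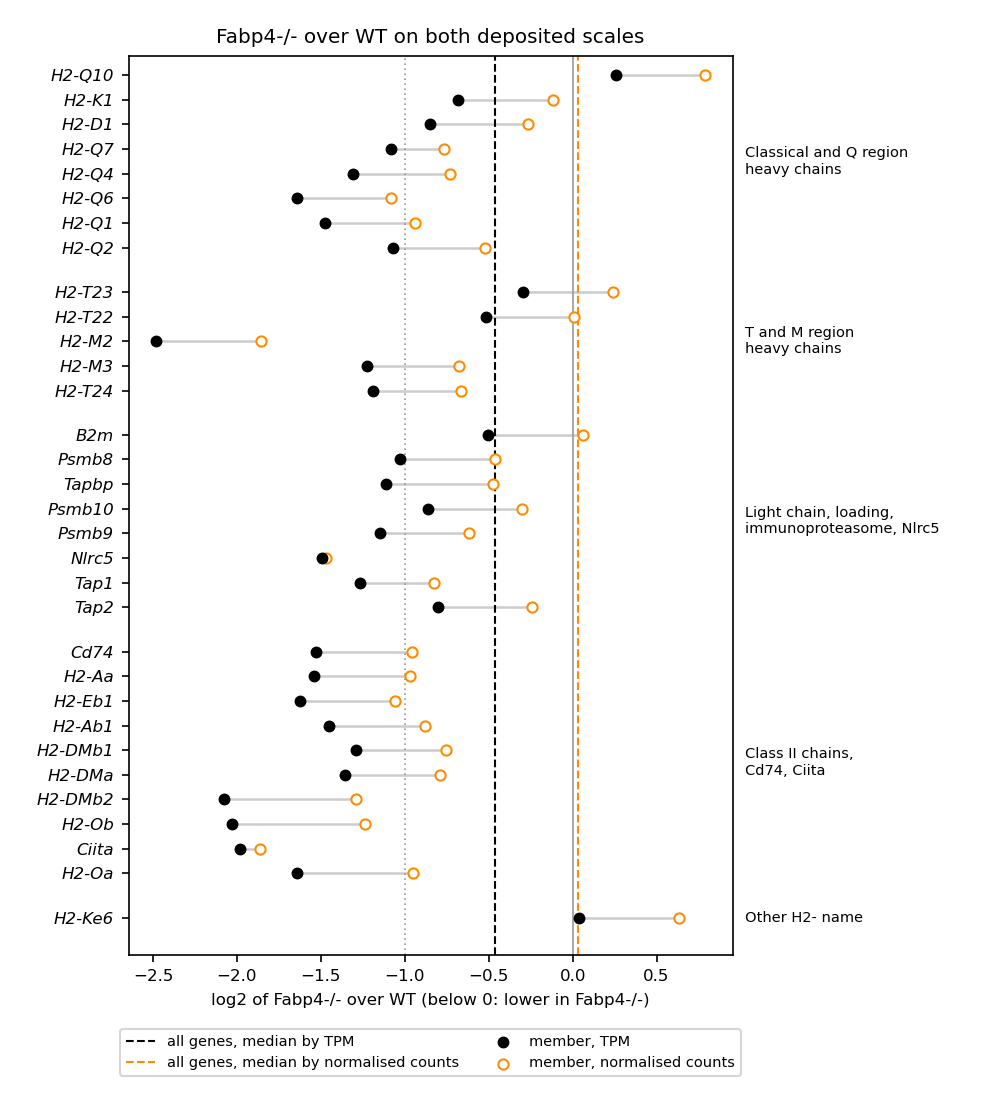
Log2 ratio of *Fabp4-/-* over WT for each measured member by TPM (filled) and by normalised counts (open), with pseudocounts of 0.5 TPM and 49.4 normalised counts, beside the medians of all genes, −0.46 by TPM and 0.03 by normalised counts (dashed), and the 2-fold line (dotted). The open symbols of *H2-T23*, *H2-T22* and *B2m* lie above 0 and their filled symbols below it, and *Nlrc5* is nearly the same on both scales.

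*H2-Ke6*, named for its place in the complex, was at 63.9 TPM in the *Fabp4-/-* library and 62.2 TPM in the WT library. Its log2 ratio of 0.04 lies 0.50 above the all-gene median. Of the 151-base windows in its transcripts, 54.3% also occur in the read-through gene *Gm20427*, so its level is uncertain.

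Most of the members lie on chromosome 17, and the other protein-coding genes between them are given for comparison. Between the outermost members, 85 such genes were measured. Of the 85, 13 were lower by 2-fold or more in TPM (14.2% over all measured genes) and 0 were higher by as much. The median log2 ratio of the 85 was −0.50, close to the −0.46 of all genes, against −1.23 for the 27 measured members of that chromosome. An effect of the region was not tested. The lowest of these neighbours were *Ubd*, which encodes the ubiquitin-like protein FAT10 and is inducible by interferon-γ, at 3.24 TPM in the *Fabp4-/-* library and 57.0 TPM in the WT library, and the lymphotoxin gene *Ltb*, at 8.70 TPM in *Fabp4-/-* and 47.0 TPM in WT.

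**Figure D4:**
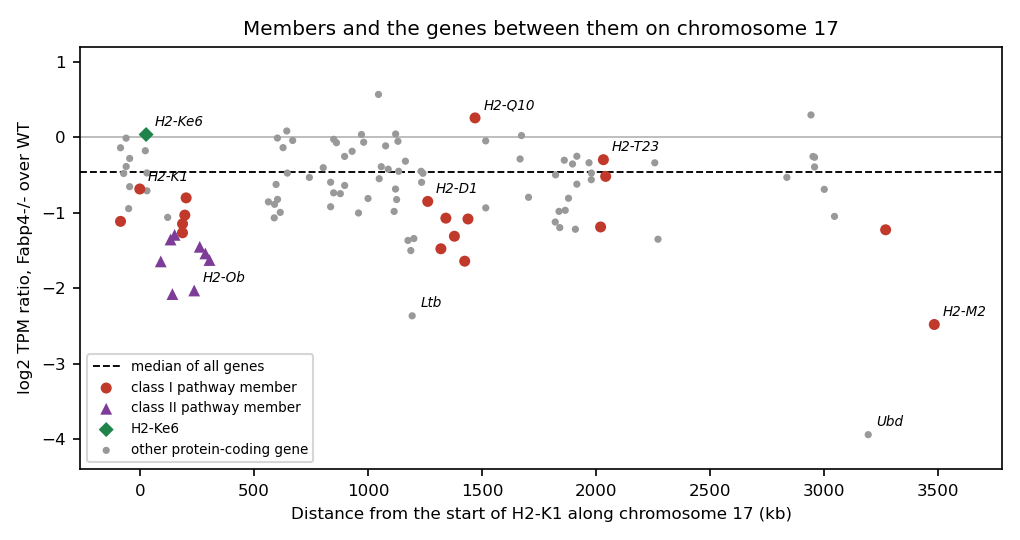
Log2 TPM ratio of *Fabp4-/-* over WT against the distance from the start of *H2-K1* along chromosome 17, for 27 measured members and the 85 measured protein-coding genes between them. The class II members form a low group, *H2-Q10* stands above its Q region neighbours, and the grey points scatter about the median of all genes (dashed).

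The rest of the peptide machinery lay nearer to the median gene. Of 16 other genes of class I peptide supply and loading, 1 was at least 2-fold lower by TPM, *Ubd*, and the list median was −0.58. The chaperone calreticulin (*Calr*), the most abundant of them, was at 625 TPM in the *Fabp4-/-* library and 645 TPM in the WT library. The related chaperone calnexin (*Canx*) was at 59.6 TPM in *Fabp4-/-* and 107 TPM in WT, and the aminopeptidase gene *Lnpep* at 0.38 TPM in *Fabp4-/-* and 1.16 TPM in WT. With the pseudocount the log2 ratio of *Lnpep* was −0.92, short of 2-fold, and without it the TPM was 3.05-fold lower. Of 13 measured genes of class II processing, 1 was at least 2-fold lower by TPM and 0 by normalised counts. It was *March1*, which encodes a ubiquitin ligase that turns over class II molecules, at 0.63 TPM in *Fabp4-/-* against 1.85 TPM in WT. The list median was −0.56, and the most abundant gene, *Cd63* of late endosomes, was at 285 TPM in *Fabp4-/-* and 305 TPM in WT. The protease cathepsin S (*Ctss*), which trims the invariant chain, was at 55.3 TPM in the *Fabp4-/-* library and 111 TPM in the WT library, a log2 ratio of −0.996 with the pseudocount, just short of 2-fold.

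Among other regulators of MHC transcription, 6 of 16 were at least 2-fold lower by TPM. On the normalised count scale 2 were, and the TPM median was −0.77. *Irf1*, an interferon-inducible transcription factor, was at 11.4 TPM in *Fabp4-/-* and 40.9 TPM in WT, and *Irf8*, a factor of dendritic cells and macrophages, at 6.21 TPM in *Fabp4-/-* and 17.6 TPM in WT. *Nfya*, a subunit of the factor that binds the Y box, was at 4.28 TPM in *Fabp4-/-* and 10.2 TPM in WT. Of 11 measured interferon receptor and signalling genes 0 were at least 2-fold lower or higher by TPM, with a median of −0.65. *Ifng* itself (named once its values were known) was at 0 TPM in the *Fabp4-/-* library and 0.78 TPM in the WT library, from 0 read pairs in *Fabp4-/-* and 37 in WT. Set against a floor of 3 read pairs in the *Fabp4-/-* library, its normalised count was at least 9.58-fold lower.

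Genes of the interferon-γ response were lower in nearly every case. Of 20 measured, 19 were lower by 2-fold or more in TPM, with a median of −2.15, and 18 in normalised counts, with a median of −1.63. *Tgtp1*, an interferon-inducible GTPase whose reads RSEM divides with *Tgtp2*, was at 1.29 TPM in the *Fabp4-/-* library and 42.5 TPM in the WT library, and the chemokine gene *Cxcl9* at 7.76 TPM in *Fabp4-/-* and 75.8 TPM in WT. The most abundant, *Iigp1*, was at 213 TPM in *Fabp4-/-* and 408 TPM in WT and did not reach 2-fold.

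Marker genes of T, NK, B and dendritic cells were lower beside these groups, whereas those of macrophages were mixed and those of neutrophils and plasma cells were not lower than the median gene. All 8 T cell markers were at least 2-fold lower on both scales, and their summed level was 6.69 TPM in the *Fabp4-/-* library and 67.7 TPM in the WT library. The NK cell markers, 3 of 4 measured at least 2-fold lower on both scales, summed to 2.79 TPM in *Fabp4-/-* and 19.1 TPM in WT. The largest part of that sum was *Nkg7*, at 1.43 TPM in *Fabp4-/-* and 14.4 TPM in WT. The other 3 listed, *Ncr1*, *Klrb1c* and *Klre1* (named once their values were known), were under 1 TPM in both libraries and not measured. A change particular to NK cells therefore cannot be read from this list. Of the cells known for class II, B cell markers (5 of 7 at least 2-fold lower by TPM and 3 by normalised counts) summed to 11.0 TPM in the *Fabp4-/-* library and 35.2 TPM in the WT library. Dendritic cell markers (5 of 8 measured at least 2-fold lower by TPM and 1 by normalised counts) summed to 11.3 TPM in *Fabp4-/-* and 34.7 TPM in WT. Macrophage and Kupffer cell markers summed to 264 TPM in *Fabp4-/-* and 434 TPM in WT, with 1 of 10 measured lower and 1 higher by 2-fold or more in TPM. In normalised counts 0 were lower and 3 higher by as much, and the sum was 0.922 times WT. The complement gene *C1qa* was at 63.3 TPM in *Fabp4-/-* and 130 TPM in WT. The Kupffer cell genes *Clec4f*, at 24.7 TPM in *Fabp4-/-* and 14.7 TPM in WT, *Vsig4*, at 6.69 TPM in *Fabp4-/-* and 4.65 TPM in WT, and *Marco*, at 1.93 TPM in *Fabp4-/-* and 0.51 TPM in WT, were higher (the first and second were named once their values were known). Neutrophil markers (0 of 3 measured lower by 2-fold on either scale) summed to 57.4 TPM in *Fabp4-/-* and 45.1 TPM in WT, and plasma cell markers (0 of 4) to 529 TPM in *Fabp4-/-* and 586 TPM in WT. Of the latter sum, *Xbp1* gave 273 TPM in *Fabp4-/-* and 268 TPM in WT. *Jchain*, at 183 TPM in *Fabp4-/-* and 236 TPM in WT, was lower by TPM, and its normalised count was 1.15 times WT. No marker of the T, NK, B, dendritic cell and macrophage lists was at 0 in either library. *H2-Aa* over the macrophage gene *Cd68* was 4.74 in the *Fabp4-/-* library and 11.0 in the WT library. That ratio depends on the marker chosen. By TPM without the pseudocount, *H2-Aa* was 2.91-fold lower in *Fabp4-/-* and *Cd68* 1.26-fold. The macrophage gene *C1qa* was 2.05-fold lower, the dendritic cell marker *Itgax* 2.91-fold and the B cell marker *Cd79a* 2.90-fold. These are single genes of lists that spread widely. Measured dendritic cell markers were from 1.42-fold to 8.84-fold lower and B cell markers from 2.37-fold to 5.09-fold lower. Macrophage markers ran from higher to 2.17-fold lower. Hepatocyte markers summed to 119569 TPM in *Fabp4-/-* and 86640 TPM in WT, with 0 of 8 lower by 2-fold or more on either scale and 2 (TPM) or 4 (normalised counts) higher by as much, and the hepatocyte genes were thus abundant in both. The part of these cell types in the MHC values was not tested.

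**Figure D5:**
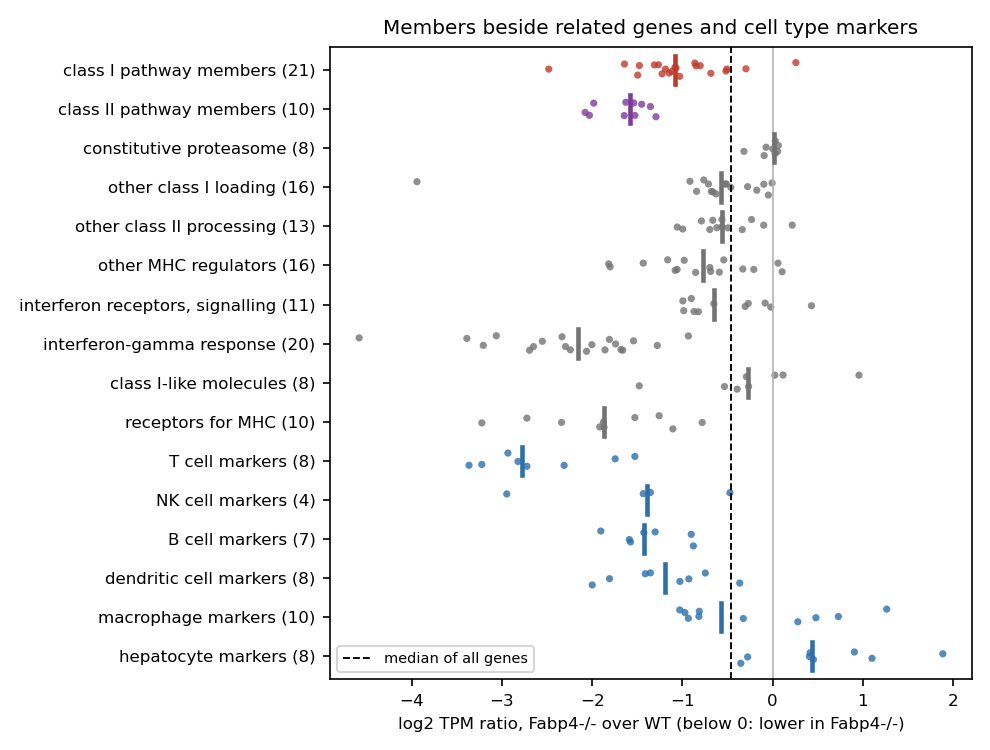
Log2 TPM ratio of *Fabp4-/-* over WT for each measured gene (points, spread vertically for sight) and its median (bar) in the class I and class II members, related gene lists and cell type markers, with the number measured in brackets. The median of the class II members, −1.58, lies above that of the T cell markers (−2.77). It lies below those of the B cell (−1.43), NK cell (−1.39), dendritic cell (−1.19) and macrophage (−0.57) markers. The dashed line is the median of all genes at −0.46.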

How the data were processed

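The authors sequenced polyA RNA of liver tumors, 1 *Fabp4-/-* and 1 WT library. STAR 2.5.2 and RSEM 1.2.31 with mm10 are listed in the submitters' processing notes. The authors deposited TPM, summing to 1000000 per library, and normalised counts, a signal equal to RSEM's estimated reads divided by a size factor. Dividing by the most frequent value above 0 (1.13 for *Fabp4-/-*, 0.882 for WT) gave read pairs. The authors' fold change, direction, FDR and posterior probability were not used. Ratios used pseudocounts of 0.5 TPM and 49.4 normalised counts. Intervals were tested on simulated data. Members and gene lists were chosen with earlier results of these data known. All measured members are named. From other lists, the most abundant gene and some of the 4 with the largest ratios were named where a list is described, except a gene that is not reported here. Promoters (RefSeq, GRCm38.p6) matched 37 of 44 members. Shared 151-base windows came from GENCODE M21 transcripts. Alternatives were other scalings, pseudocounts, minimums and thresholds, and, chosen after seeing the data, members with whole read pairs only. For the strand setting, nothing is given in the sources used here. Software was scipy 1.17.1, numpy 2.4.6, matplotlib 3.10.9 and pandas 2.3.3 under Python 3.11.15.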

Additional observations from a re-analysis of the deposited data

How the results depend on the processing

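No paired analysis was possible because there was only 1 library of either genotype. Against 13 of 21 class I members at least 2-fold lower by TPM, 3 were by normalised counts, 3 after median centring and 4 after upper quartile scaling. The class I median of −1.08 was −0.52, −0.61 and −0.76 under those settings, in that order. Against 10 of 10 class II members, 4 were by normalised counts, 7 after median centring and 9 after upper quartile scaling. The class II median of −1.58 was −0.96 by normalised counts, −1.08 after median centring and −1.23 after upper quartile scaling. At a 4-fold threshold, 1 of 21 class I and 2 of 10 class II members were lower, against 251 of 13557 genes. Among members with whole read pairs in both libraries, 7 of 9 class I and 8 of 8 class II members were at least 2-fold lower. The all-gene share was not computed under that filter. A minimum of 5 TPM or none and pseudocounts of 1 and 0.1 left both counts within 1.5 times and both medians below the all-gene median. At a 1.5-fold threshold, 17 of 21 class I and 10 of 10 class II members were lower, against 5318 of 13557 genes. Over all genes, 1928 were lower and 296 higher by 2-fold or more in TPM, against 570 and 507 by normalised counts, 715 and 640 after median centring, and 931 and 496 after upper quartile scaling. The sign of a member's ratio differed from that by TPM for *H2-T22*, *H2-T23* and *B2m* by normalised counts (0.01, 0.24 and 0.06), and for *H2-T23* after median centring (0.21) and upper quartile scaling (0.06). Reads are not the limit for abundant members, but 15 of 32 measured members, 12 of them class I, hold reads that RSEM divided by estimate.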

Other observations

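Genes listed here as receptors for MHC molecules were lower in the *Fabp4-/-* library, at low levels in both. Of 10 measured, 9 were lower by 2-fold or more in TPM and 7 in normalised counts. The median log2 TPM ratio was −1.87. The CD8 chains *Cd8a* and *Cd8b1*, co-receptors for class I, were at 0.40 TPM and 0.42 TPM in *Fabp4-/-*, against 7.91 TPM and 5.58 TPM in WT. *Klrd1*, which encodes the CD94 chain of the receptor for Qa-1, was at 0.62 TPM in *Fabp4-/-* and 5.17 TPM in WT. *Lilrb4a*, the most abundant of the list, was at 8.83 TPM in *Fabp4-/-* and 15.5 TPM in WT, but its place among receptors for MHC is uncertain. *Cd4*, *Cd8a* and *Cd8b1* are also on the T cell marker list.

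Class I-like molecules that are no H2- genes lay mostly above the all-gene median, with 2 of 8 measured below it. Of the 8, 1 was lower by 2-fold or more in TPM and 0 were higher by as much, with a median of −0.28. In normalised counts 0 were lower and 1 was higher by 2-fold or more, with a median of 0.29. That gene, *Raet1d*, a stress-induced ligand of the receptor NKG2D, was at 1.58 TPM in *Fabp4-/-* and 0.57 TPM in WT, and its normalised count was 4.08 times that of WT. By TPM its log2 ratio with the pseudocount was 0.96, just short of 2-fold. *Azgp1*, a secreted glycoprotein of liver with a class I fold, was at 894 TPM in *Fabp4-/-* and 824 TPM in WT, and the protein C receptor gene *Procr* at 1.79 TPM in *Fabp4-/-* and 5.88 TPM in WT. *Cd1d1*, which presents lipids to NKT cells and is named here once its values were known, was at 74.0 TPM in *Fabp4-/-* and 90.5 TPM in WT.

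Of 10 H2- genes not listed as protein coding, 3 were measured. *H2-Q5*, listed as a polymorphic pseudogene, was at 16.6 TPM in *Fabp4-/-* and 58.5 TPM in WT, *H2-T10* at 3.03 TPM in *Fabp4-/-* and 6.26 TPM in WT, and *H2-K2* at 3.43 TPM in *Fabp4-/-* and 4.25 TPM in WT. Mast cell markers (4 of 5 at least 2-fold lower) summed to 2.63 TPM in *Fabp4-/-* and 112 TPM in WT. The TPM ratio of *Nlrc5* stood close to its ratio of normalised counts, and 0.973% of 11918 genes at 1 TPM or more in both libraries had a lower value of the second ratio relative to the first.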
